A study of Mus musculus with 3 samples.

Results

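The genes described here are 7 members of the S100 family, S100a4, S100a6, S100a8, S100a9, S100a10, S100a11 and S100a13, of the 17 S100 genes and 32285 genes in the deposited matrices. They were chosen by their UMI levels across cell classes of these same 3 libraries and taken by symbol, so their levels are a description and carry no test. Their UMIs (unique molecular identifiers, each standing for 1 captured RNA molecule) were followed across 10 classes of cells, which were gated by UMIs of marker genes that include no S100 gene. The cells were dendritic cells grown in vitro with FLT3L, the growth factor of dendritic cell development, from wild-type C57BL/6 mice. There were 3 libraries made with the 10x Genomics 3′ v3 kit, with 1 library in each group. The groups were differentiated in 50 µM glutamine, in 2 mM glutamine with 1 µM DON (a glutamine antagonist), or in 2 mM glutamine alone as control. All cells were exposed to FLT3L, and the labels do not give the number of mice or cultures behind a library. The study's title concerns the need of type 1 conventional dendritic cells for glutamine.

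S100 proteins are small calcium-binding proteins that work mostly as dimers, and calcium binding opens a surface that holds partner proteins. S100a8 and S100a9 form calprotectin, the most abundant cytosolic protein of neutrophils, which binds zinc and manganese and, outside the cell, acts on Tlr4 and on Ager, the receptor RAGE. S100a10 joins annexin A2 (Anxa2), S100a11 joins annexin A1 (Anxa1), and S100a4 binds non-muscle myosin (Myh9).

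All 7 members lie on chromosome 3 in GENCODE vM21 (GRCm38), as do 14 of the 17 S100 genes. S100a4 (chr3:90603771-90606045) and S100a6 (chr3:90612882-90624181) are 6.8 kb apart on the plus strand, and S100a8 (chr3:90668978-90670035, plus) is 22.6 kb from S100a9 (chr3:90692632-90695721, minus). S100a13 (chr3:90514435-90524581, plus) starts 42 bases from the divergent gene S100a1. S100a11 (chr3:93520488-93526287, plus) and S100a10 (chr3:93555080-93564643, plus) are 28.8 kb apart and lie 2824.8 kb beyond S100a9. S100a4 overlaps the predicted gene Gm42674 on the same strand, and S100a11 has a processed pseudogene in the annotation; how counting shared reads between these was not tested.

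The promoters of the 2 neutrophil genes are shown because S100a8 and S100a9 had nearly the same pattern across classes, and that of S100a11 because it was high in both cDC1 and neutrophils. The sequences are from RefSeq (GRCm38.p6), 5′ to 3′ on the strand of the gene, with 250 bases before and 50 after its start, and 6 of the 7 members had an entry. They lie at chr3:90668821-90669120 (plus) for S100a8, chr3:90695672-90695971 (minus) for S100a9 and chr3:93520246-93520545 (plus) for S100a11. Capitals mark motif matches on either strand.
S100a8: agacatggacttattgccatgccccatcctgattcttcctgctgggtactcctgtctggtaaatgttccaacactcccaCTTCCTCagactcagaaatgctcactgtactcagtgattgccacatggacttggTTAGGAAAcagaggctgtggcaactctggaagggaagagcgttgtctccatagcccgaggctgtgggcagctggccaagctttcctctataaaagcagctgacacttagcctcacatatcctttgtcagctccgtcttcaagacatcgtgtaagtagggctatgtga
S100a9: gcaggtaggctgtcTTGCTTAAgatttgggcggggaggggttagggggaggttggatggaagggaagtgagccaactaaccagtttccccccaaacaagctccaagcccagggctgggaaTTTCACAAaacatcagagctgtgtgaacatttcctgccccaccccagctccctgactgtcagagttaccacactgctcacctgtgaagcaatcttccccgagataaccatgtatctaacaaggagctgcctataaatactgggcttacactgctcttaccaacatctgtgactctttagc
S100a11: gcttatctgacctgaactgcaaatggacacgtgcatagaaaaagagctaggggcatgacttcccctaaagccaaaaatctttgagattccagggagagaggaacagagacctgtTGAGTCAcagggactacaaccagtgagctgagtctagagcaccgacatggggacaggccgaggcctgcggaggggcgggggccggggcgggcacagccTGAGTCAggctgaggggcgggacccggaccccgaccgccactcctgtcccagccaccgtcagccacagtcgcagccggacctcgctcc
The motifs searched were TTNNGNAA, a loose form of the C/EBP site, GAGGAAG, a PU.1 core, and TGANTCA, the AP-1 site, and no match overlapped another. C/EBP factors and PU.1 act in granulocyte and myeloid development. S100a8 held a C/EBP match whose first base lay at -117 from the start and a PU.1 match at -171, and S100a9 held C/EBP matches at -236 and -130. S100a11 held AP-1 matches at -136 and -38, and S100a4 held a PU.1 match at 18. Of 32851 RefSeq promoters of this length, 40.7% held the C/EBP letters, 13.6% those of PU.1 and 7.81% those of AP-1, so single matches are common.

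The 50 µM glutamine library held 92002827 UMIs in 9817 barcodes, the DON library 87611658 in 8962 and the control library 89340379 in 10497. Filters left 9649 cells at 50 µM, 8887 with DON and 10367 in control, with medians of 7909, 8145 and 6890 UMIs in these libraries. Of these cells 58.0 to 62.1% entered a gate, 5.54 to 6.99% were mixed and 31.3 to 36.5% passed no gate. Pairs of libraries shared 20 to 31 barcodes. Gate markers were highest in their own gate in all 33 marker and library pairs for neutrophils and all 30 for mature DC, but in 18 of 24 for cDC1 and 15 of 27 for cDC2. Cd209a, a cDC2 marker, was at 89.1 CPM (UMIs of the gene per 1000000 UMIs of the gate) in the cDC1 gate at 50 µM and at 12.4 CPM with DON. Of the cDC2 markers, Itgam and Clec4a2 were highest in neutrophils and Sirpa in monocytes or macrophages in each library. Itgam was at 730 CPM in neutrophils and 219 in cDC2 at 50 µM, 706 and 132 with DON, and 561 and 152 in control. Whether neutrophils passed the cDC2 gate was not tested. The mast cell markers Cma1 and Tpsb2 were at 0 in all gates.

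Type 1 conventional dendritic cells (cDC1) present antigen to CD8 T cells, and type 2 (cDC2) mostly to CD4 T cells. Plasmacytoid dendritic cells (pDC) make type I interferon, and mature dendritic cells (mature DC) migrate to lymph nodes. The cDC1 gate held 158 cells at 50 µM, 391 with DON and 1140 in control. The cDC2 gate held 1158 cells at 50 µM, 960 with DON and 1263 in control. The pDC gate held 2722 cells at 50 µM, 2636 with DON and 2680 in control. In the smaller gates there were 224 mature DC at 50 µM, 226 with DON and 487 in control, and 84 monocytes or macrophages at 50 µM, 185 with DON and 150 in control. Neutrophils numbered 157 at 50 µM, 194 with DON and 185 in control. The progenitor gate held 879 cells at 50 µM, 290 with DON and 274 in control.

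S100a4 was highest in cDC2, followed by mature DC. In the cDC2 gate it stood at 2475 CPM at 50 µM, 2629 with DON and 2434 in control. This gate led the 10 gates in every library, also under 9 other ways of filtering, gating or averaging the cells. Mature DC had 1672 CPM at 50 µM, 1993 with DON and 1743 in control, and the 95% Poisson intervals of these leading gates did not overlap in any library. Monocytes or macrophages had 1102 CPM at 50 µM, 1044 with DON and 983 in control. They overlapped the T, NK or innate lymphoid gate in each library. The cDC1 gate had 240.4 CPM at 50 µM, 229 with DON and 193 in control. The pDC gate had 238 CPM at 50 µM, 315 with DON and 247 in control.

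The share of cells with an S100a4 UMI, after each cell was thinned to 2000 UMIs, was also highest in cDC2. It was 94.4% of cDC2 at 50 µM (92.9 to 95.7%, exact binomial), 97.3% with DON and 97.8% in control. Of cDC1 it was 32.3% at 50 µM, 28.1% with DON and 20.9% in control, and of pDC 24.1% at 50 µM, 24.4% with DON and 20.6% in control. B lineage cells had one in 19.4% (13.1 to 27.1%) at 50 µM, 7.2% (3.35 to 13.2%) with DON and 18.3% (10.1 to 29.3%) in control. The share did not follow the CPM between cDC1 and pDC with DON and in control, so no order of these gates is read from it. The pDC share lay inside the B lineage interval at 50 µM and in control, and above it with DON. Median depths before thinning were 6777 UMIs in pDC and 2021 in B lineage cells at 50 µM, 6748 and 4687 with DON, and 5438 and 2290 in control. Within the cDC1 gate, cells with a Cd209a UMI had 251 CPM of S100a4 at 50 µM, 303 with DON and 392 in control. Those without had 235 CPM at 50 µM, 220.1 with DON and 172 in control. Intervals here and below cover counting error only, since no group has a second library.

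S100a6, calcyclin, was highest in neutrophils in every library and under the same 9 alternatives. It stood there at 2915 CPM at 50 µM, 2989 with DON and 4226 in control. The cDC2 gate came second, with 1600.3 CPM at 50 µM, 1870.3 with DON and 2111 in control. Monocytes or macrophages had 1363 CPM at 50 µM, 997 with DON and 1181 in control. Progenitors were lowest at 50 µM and in control, with 129.7 and 173 CPM, and B lineage cells with DON, with 117 CPM.

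Within gates S100a6 differed between groups of cells. Neutrophils with a UMI of Cxcr2, a chemokine receptor of later neutrophils, had 4758 CPM at 50 µM (80 cells), 4947 with DON (86 cells) and 7050 in control (99 cells). Those without had 1824 CPM at 50 µM, 2064 with DON and 2342 in control. Cells with at least 10 UMIs of 8 cell cycle genes per 10000 are called cycling here. Cycling neutrophils had 366 CPM at 50 µM, 396 with DON and 931 in control, and the others 4433 CPM at 50 µM, 3953 with DON and 5208 in control. Cycling cDC2 were lower too, with 961 CPM at 50 µM, 1196 with DON and 1480 in control. The other cDC2 had 1966 CPM at 50 µM, 2168 with DON and 2313 in control. The cDC2-gated cells with an Ltb UMI and no Cd209a UMI had 1173 CPM at 50 µM, 1292 with DON and 1683 in control, and those with a Cd209a UMI 1827 CPM at 50 µM, 2037 with DON and 2135 in control.

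S100a10 was highest in cDC2 and lowest in neutrophils in all 3 libraries and under the same 9 alternatives. The cDC2 gate had 1223 CPM at 50 µM, 1496 with DON and 1368 in control. Neutrophils had 193 CPM at 50 µM, 123 with DON and 195 in control. The cDC1 gate had 809.7 CPM at 50 µM, 1064.5 with DON and 994 in control, and its interval overlapped that of the T, NK or innate lymphoid gate in each library. Of thinned cDC2 83.7% had an S100a10 UMI at 50 µM, 90.3% with DON and 89.4% in control. Of thinned neutrophils 9.77% had one at 50 µM, 7.73% with DON and 11.9% in control. Cycling pDC had 519.9 CPM at 50 µM, 627 with DON and 578 in control, and the other pDC 359 CPM at 50 µM, 417 with DON and 336 in control.

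S100a11 was high in both cDC1 and neutrophils. The cDC1 gate had 2596 CPM at 50 µM, 2979 with DON and 2874 in control. Neutrophils had 2241 CPM at 50 µM, 2861 with DON and 3417 in control. Thus cDC1 led at 50 µM and neutrophils in control, and with DON their intervals overlapped. The cDC2 gate had 1873 CPM at 50 µM, 2416 with DON and 2030.3 in control, and mature DC had 1309 CPM at 50 µM, 1598 with DON and 1534 in control. Progenitors were lowest at 50 µM and in control, with 269.6 and 329 CPM, and B lineage cells with DON, with 361 CPM.

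S100a13, which takes part in the export of Fgf1, was low and even. Its levels ran between 82.0 and 193 CPM over all 10 gates and 3 libraries, with progenitors lowest in each. Nearly all neighbouring gates overlapped in their intervals, so the order between them is not resolved.

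**Figure D1:**
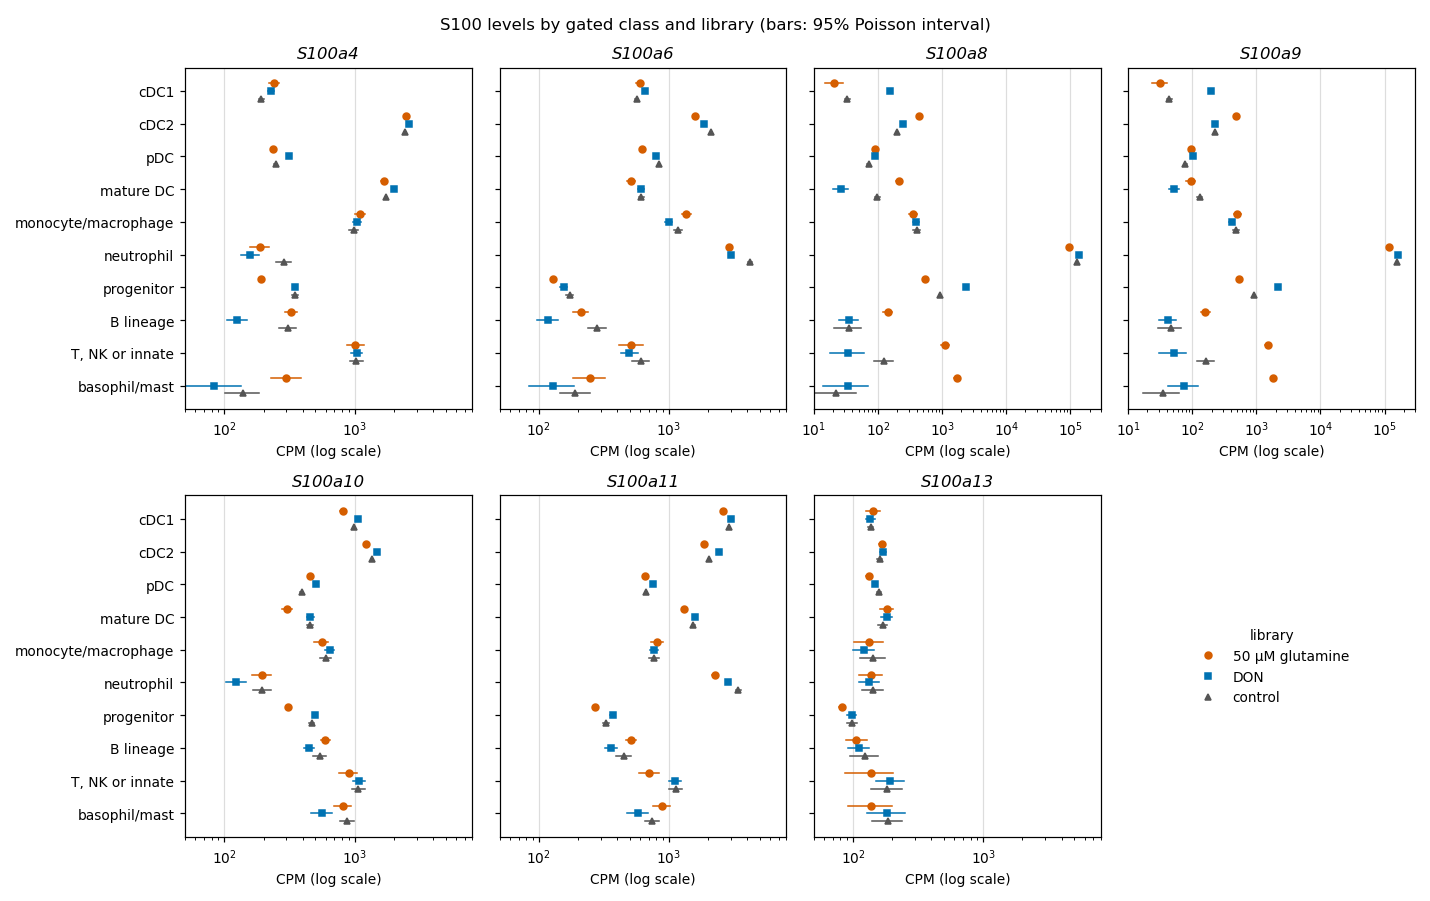
Levels of the 7 members in CPM on a log axis for the 10 gates (rows) in the 50 µM glutamine (circles), DON (squares) and control (triangles) libraries; bars are 95% Poisson intervals. S100a4 and S100a10 peak in cDC2, S100a6 in neutrophils, S100a11 in cDC1 and neutrophils, and S100a8 and S100a9 in neutrophils, where S100a8 was at 95076 CPM at 50 µM, 136505 with DON and 127875 in control.

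**Figure D2:**
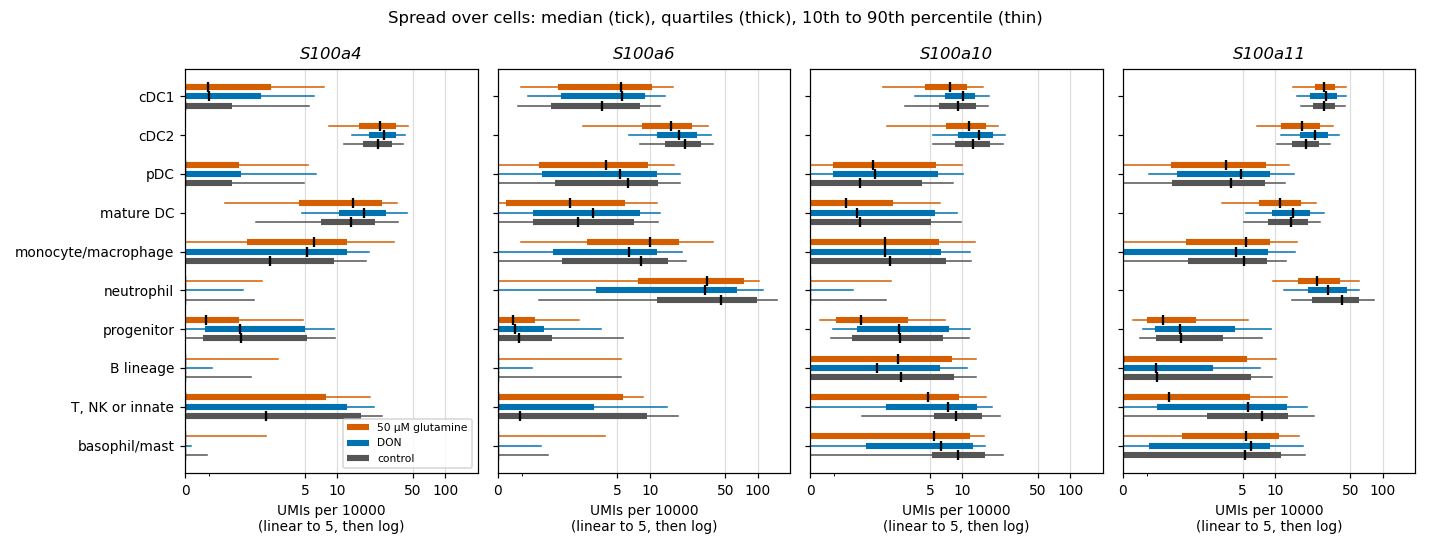
UMIs per 10000 in single cells for S100a4, S100a6, S100a10 and S100a11 by gate and library. Ticks are medians, thick bars quartiles and thin bars the 10th to 90th percentile; S100a4 has medians of 24.7 at 50 µM, 27.0 with DON and 23.9 in control in cDC2, and 0 in pDC in each library.

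S100a8 and S100a9 were highest in neutrophils in every library and under the same 9 alternatives. S100a8 stood there at 95076 CPM at 50 µM, 136505 with DON and 127875 in control. S100a9 stood at 116572 CPM at 50 µM, 160669 with DON and 155169 in control, and every thinned neutrophil had a UMI of each gene. The gate held 53.2% of the S100a8 UMIs of all cells kept at 50 µM, 63.8% with DON and 73.5% in control. Across single neutrophils the levels of both genes followed each other, with a Pearson r of log values of 0.95 over 157 cells at 50 µM, 0.87 over 194 with DON and 0.95 over 185 in control. S100a10 ran the other way to S100a8, with r = -0.70 at 50 µM, -0.67 with DON and -0.51 in control. However, few neutrophils held S100a10, with a median and 75th percentile of 0 in each library. The tenth of neutrophils richest in it held 92.1% of its UMIs at 50 µM, 95.1% with DON and 93.6% in control. These r values therefore set a few cells against the rest and show no graded trend. The cells of each r share a library, and both levels are shares of the same cell's UMIs.

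Outside neutrophils both genes were lower by far. Progenitors had 534 CPM of S100a8 at 50 µM, 2356 with DON and 925 in control, which is 0.561%, 1.73% and 0.723% of the neutrophil level of the same library. Basophils or mast cells had 1710.1 CPM at 50 µM, where 2 of 53 cells held 96.8% of it, 34.4 with DON and 22.0 in control. The cDC2 gate had 439 CPM at 50 µM, 247 with DON and 199 in control. The cDC1 gate had 20.9 CPM at 50 µM, 153 with DON and 33.5 in control. Plasmacytoid cells had 88.8 CPM at 50 µM, 88.5 with DON and 71.3 in control, and mature DC 211 CPM at 50 µM, 26.2 with DON and 98.2 in control.

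The median cell of the cDC1, cDC2, pDC and mature DC gates had no S100a8 UMI in any library. Cells with at least 1% of their UMIs from S100a8 and S100a9, called rich cells here, held much of the signal. In the cDC2 gate 23 rich cells held 89.8% of the S100a8 UMIs at 50 µM, 10 held 86.0% with DON and 10 held 81.1% in control. The cDC1 gate had 0 rich cells at 50 µM, 3 with DON and 1 in control, and the pDC gate 7 at 50 µM, 3 with DON and 4 in control. Mature DC had 2 at 50 µM, 0 with DON and 1 in control, and progenitors 11 at 50 µM, 14 with DON and 6 in control. A further 106 rich cells at 50 µM, 66 with DON and 70 in control passed no gate. The neutrophil gate held 41.5% of all rich cells at 50 µM, 57.1% with DON and 58.2% in control.

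Levels of a few neutrophil and precursor genes in the rich cells are given here. No gene is given for both the cDC2 and the progenitor gate, so no difference between these gates is read. In the cDC2 gate the rich cells had 251 CPM of Cxcr2 at 50 µM, 317 with DON and 231 in control. In the progenitor gate they had 2213 CPM of Elane, a protease of granule precursors, at 50 µM, 4665 with DON and 7865 in control. Their Ngp, a neutrophil granule gene, was at 2594 CPM at 50 µM, 4680 with DON and 4952 in control. Rich cells that passed no gate had Cxcr2 at 729 CPM at 50 µM, 705 with DON and 818 in control, but Ngp at 185 CPM at 50 µM, 181 with DON and 76.7 in control. Elane is a marker of the progenitor gate, and Ngp and Cxcr2 of the neutrophil gate, so these levels depend in part on the gating.

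Without the rich cells, S100a8 was at 20.9 to 61.6 CPM in the cDC1, cDC2, pDC, mature DC, progenitor and B lineage gates. Its ratio to the summed UMIs of the granule genes Ngp, Camp, Ltf and Lcn2 was 1.27 to 3.46 there. Rich cells were chosen by S100a8 and S100a9, so leaving them out lowers S100a8 by design. In the neutrophil gate the ratio to these granule genes was 1.59 at 50 µM, 2.03 with DON and 2.28 in control. These genes are markers of that gate, so its ratio depends on the gating. With rich cells kept, cells that passed no gate had 18.3 at 50 µM, 14.9 with DON and 20.4 in control. Mixed cells had 2.90 at 50 µM, 3.59 with DON and 4.16 in control. Within a library, 1 source of stray RNA keeps 1 ratio in every class. The 95% interval held the neutrophil ratio in 5 of 12 pairs of DC gate and library. These were cDC1 (0.894 to 2.63) and mature DC (1.15 to 2.76) at 50 µM, cDC2 and pDC (1.78 to 2.28) with DON, and cDC1 (1.92 to 2.98) in control. Above it lay cDC2 at 50 µM (1.98 to 2.84) and in control (2.81 to 4.28), and pDC at 50 µM (2.32 to 2.97). Below it lay cDC1 with DON (1.12 to 1.93), mature DC with DON (0.842 to 1.92) and in control, and pDC in control, by a narrow margin. These positions depend on the gate that gives the ratio, and the part of stray RNA in these levels was not tested.

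Of thinned cDC2, 7.95% had an S100a8 UMI at 50 µM, 7.41% with DON and 5.02% in control. B lineage cells, which should lack it, had one in 8.21% at 50 µM, 8% with DON and 5.63% in control. Median depths were 6949 UMIs in cDC2 and 2021 in B lineage cells at 50 µM, 8452 and 4687 with DON, and 7268 and 2290 in control. The cDC2 shares lay inside the B lineage intervals of 4.17 to 14.2% at 50 µM, 3.90 to 14.2% with DON and 1.56 to 13.8% in control, so no S100a8 expression in cDC2 is read from them. Of monocytes or macrophages 28.4% had one at 50 µM, 32.2% with DON and 30.8% in control. Without rich cells they kept 112 CPM at 50 µM, 180 with DON and 142 in control, and how much of it is stray RNA was not tested.

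**Figure D3:**
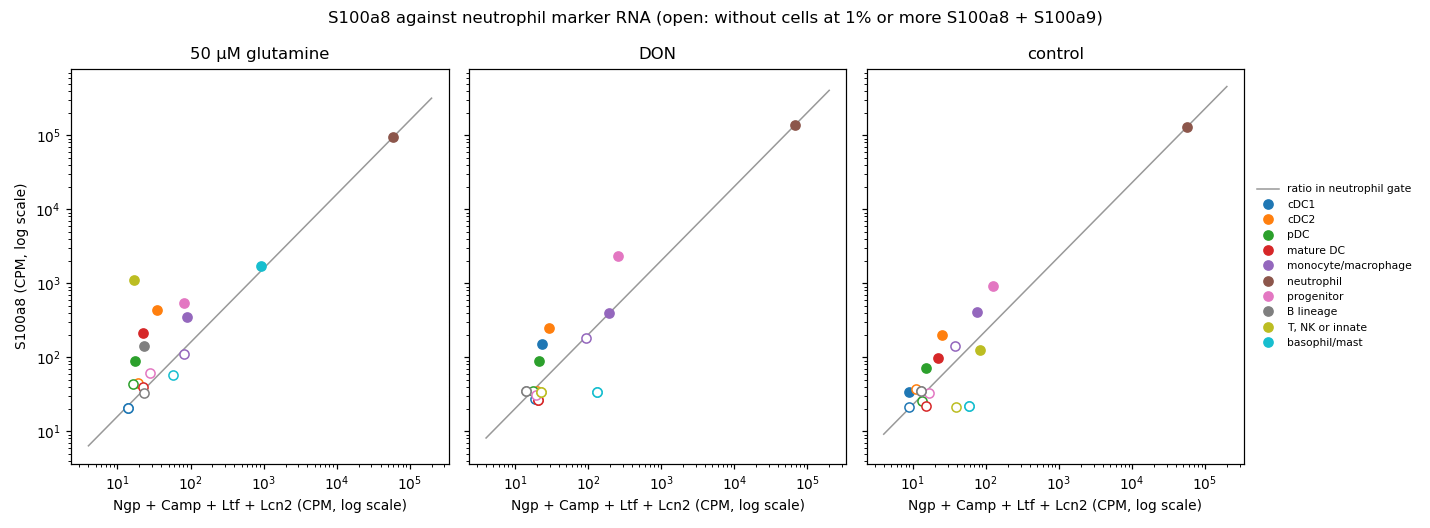
S100a8 against the summed neutrophil markers Ngp, Camp, Ltf and Lcn2, both in CPM on log axes, by gate, with panels for the 50 µM glutamine, DON and control libraries. Filled points are all cells of a gate, open points leave out cells with at least 1% of UMIs from S100a8 and S100a9, and the line is the ratio in the neutrophil gate. Filled points of cDC2 and progenitors lie above it, and leaving out the rich cells moves both gates towards it. Rich cells are chosen by S100a8 and S100a9, so leaving them out lowers S100a8 by design, and no source is read from this move.

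For 50 µM glutamine against control, differences were taken as log2 of CPM + 5, and a member was called at a ratio of at least 1.5 in either direction. With 1 library a group no test is possible, so the ranges given are the extremes of the 2 counting intervals. All 7 members were measured in all 8 gates compared; the T, NK or innate lymphoid and the basophil or mast cell gates were left out as too small. In cDC1, 0 were higher and 0 lower, beside 9.81% and 2%, or 11.8% in either direction, of 5853 genes of at least 20 CPM. The largest ratio was S100a8 at -0.57 (20.9 CPM at 50 µM and 33.5 in control), and S100a4 was at 0.31 (0.12 to 0.50). In control 1 rich cell held 36.9% of the S100a8 UMIs of this gate, and without it S100a8 was at -0.013 (20.9 CPM at 50 µM and 21.1 in control). In cDC2, 2 were higher and 0 lower (4.95% and 1.47%, or 6.42% in either, of 5917 genes): S100a8 with 439 CPM at 50 µM and 199 in control (1.12, 1.02 to 1.22) and S100a9 with 481 CPM at 50 µM and 229 in control (1.05, 0.95 to 1.15). Without the rich cells these were at 0.23 and 0.18. S100a4 in cDC2 was at 0.02 (-0.01 to 0.06), S100a10 at -0.16 and S100a6 at -0.40 (-0.44 to -0.36; 1600.3 CPM at 50 µM and 2111 in control). S100a6 was lower at 50 µM both in cycling and in other cDC2 cells, as given above, but the gate's cycling markers were also more abundant (1637 CPM at 50 µM and 1008 in control). The part of the cell cycle in the ratio was not tested. In pDC, 0 were higher and 0 lower (9.58% and 4.14%, or 13.7% in either, of 6260 genes), with S100a6 at -0.45 (620.2 CPM at 50 µM and 847 in control). Without the rich cells S100a8 in pDC was at 0.65 (42.9 CPM at 50 µM and 25.6 in control), above the limit of the call, and S100a9 at 0.40. Median-of-ratios scaling shifts the ratios by 0.13 in cDC2, 0.12 in pDC and 0.17 in neutrophils. The median of the 7 members was -0.15 in cDC1, 0.02 in cDC2 and -0.03 in pDC, beside 0.06, 0.14 and 0.13 over all genes tested.

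In mature DC 1 was higher and 0 lower at 50 µM (5.05% and 2.93%, or 7.97% in either, of 5330 genes), S100a8 at 1.07 (211 CPM at 50 µM and 98.2 in control), of which 2 cells held 81.6% at 50 µM and 1 cell 77.7% in control. Without these cells S100a8 was at 0.71, still above the limit of the call. It then had 39.3 CPM on 62 UMIs at 50 µM and 22.0 CPM on 82 UMIs in control. S100a10 was at -0.58 (303 CPM at 50 µM and 456 in control), just short of the call. In monocytes or macrophages 0 and 0 were called (11.4% and 10.6%, or 22.1% in either, of 6908 genes), in 84 cells at 50 µM and 150 in control. Neutrophils had 0 higher and 2 lower (18.2% and 4.68%, or 22.9% in either, of 5342 genes), namely S100a11 with 2241 CPM at 50 µM and 3417 in control (-0.61, -0.73 to -0.48) and S100a4 with 186 CPM at 50 µM and 285 in control (-0.60, -1.03 to -0.17). S100a6 was at -0.54 there. At 50 µM, the tenth of neutrophils richest in S100a4 held 96.3% of its UMIs; the like share was 95.6% in control, and the median neutrophil had 0. Progenitors had 0 higher and 4 lower (1.83% and 1.32%, or 3.15% in either, of 5745 genes): S100a4 with 192 CPM at 50 µM and 348 in control (-0.84, -0.96 to -0.72), S100a10 with 309.9 CPM at 50 µM and 469 in control (-0.59, -0.69 to -0.49), and S100a8 and S100a9 at -0.79 and -0.80. Without the 11 rich cells at 50 µM and 6 in control, the last 2 genes were at 0.80 and -0.065. The progenitor gate held 879 cells at 50 µM and 274 in control, and whether its make-up differed was not tested. In B lineage cells 2 were higher and 0 lower (11.9% and 5.4%, or 17.3% in either, of 6366 genes), S100a8 at 1.88 (141 CPM at 50 µM and 34.8 in control) and S100a9 at 1.71, and 1 cell held 76.5% of the S100a8 UMIs at 50 µM. The members' median was -0.59 in progenitors and -0.43 in neutrophils, beside 0.05 and 0.19 over all genes; in mature DC, monocytes or macrophages and B lineage cells it was -0.23, 0.06 and 0.14, beside 0.06, 0.03 and 0.07.

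With DON, S100a4, S100a6, S100a10, S100a11 and S100a13 stayed within 1.5-fold of control in the cDC1, cDC2, pDC and mature DC gates. In cDC1, 2 were higher and 0 lower (1.06% and 1.06%, or 2.12% in either, of 5464 genes): S100a8 with 153 CPM with DON and 33.5 in control (2.04, 1.82 to 2.25) and S100a9 with 196 CPM with DON and 44.1 in control (2.03, 1.84 to 2.22). In this gate 3 rich cells with DON held 82.2% of the S100a8 and 79.6% of the S100a9 UMIs. In control 1 rich cell held 36.9% and 29.5%. Leaving out the rich cells of both libraries gave 0.31 for S100a8 (27.4 CPM with DON and 21.1 in control). For S100a9 it gave 0.32 (40.2 CPM with DON and 31.1 in control). In cDC2, 0 were higher and 0 lower (0.522% and 0.234%, or 0.757% in either, of 5551 genes), with S100a4 at 0.11 (0.08 to 0.15), S100a11 at 0.25 and S100a6 at -0.17. In pDC, 0 and 0 were called (2.09% and 0.8%, or 2.9% in either, of 5872 genes), with S100a10 at 0.36 (0.30 to 0.42) and S100a4 at 0.34 (0.27 to 0.42). Mature DC had 0 higher and 2 lower (2.5% and 0.993%, or 3.49% in either, of 5237 genes), S100a8 at -1.72 (26.2 CPM with DON and 98.2 in control) and S100a9 at -1.26. There were 0 rich cells with DON, and 1 in control held 77.7% of the S100a8 UMIs; without it the direction turned, to 0.21 for S100a8 and 0.54 for S100a9. Monocytes or macrophages had 0 and 0 (7.74% and 5.27%, or 13% in either, of 6773 genes). Without the 3 rich cells with DON and 2 in control, S100a9 was at 0.85 there, above the limit of the call. It then had 232 CPM with DON and 127 in control, and S100a8 was at 0.33 (180 CPM with DON and 142 in control). Neutrophils had 0 higher and 2 lower (4.44% and 7.17%, or 11.6% in either, of 4910 genes), S100a4 at -0.84 (157 CPM with DON and 285 in control, -1.25 to -0.43) and S100a10 at -0.64 (123 CPM with DON and 195 in control, -1.12 to -0.17), while S100a8 was at 0.09. The tenth of neutrophils richest in S100a4 held 91.7% of its UMIs with DON and 95.6% in control. For S100a10 this was 95.1% with DON and 93.6% in control, and both genes had medians of 0. In progenitors 2 were higher and 0 lower (0.196% and 0.268%, or 0.464% in either, of 5600 genes), S100a8 at 1.34 (2356 CPM with DON and 925 in control) and S100a9 at 1.24, which without rich cells were at -0.09 and 0.11. In B lineage cells 0 were higher and 2 lower (7.21% and 8.71%, or 15.9% in either, of 6118 genes), S100a4 at -1.26 (125 CPM with DON and 305 in control) and S100a6 at -1.23 (117 CPM with DON and 282 in control), in 168 cells with DON and 132 in control. The tenth of B lineage cells richest in S100a4 held 91.7% of its UMIs with DON and 94.0% in control, and for S100a6 91.9% with DON and 94.2% in control, with medians of 0. The members' median was 0.22 in cDC1, 0.11 in cDC2, 0.29 in pDC and 0.00 in mature DC, beside 0.08, 0.07, 0.04 and 0.04 over all genes; it was -0.05, -0.26, 0.09 and -0.27 in monocytes or macrophages, neutrophils, progenitors and B lineage cells, beside 0.05, -0.03, 0.03 and -0.03.

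**Figure D4:**
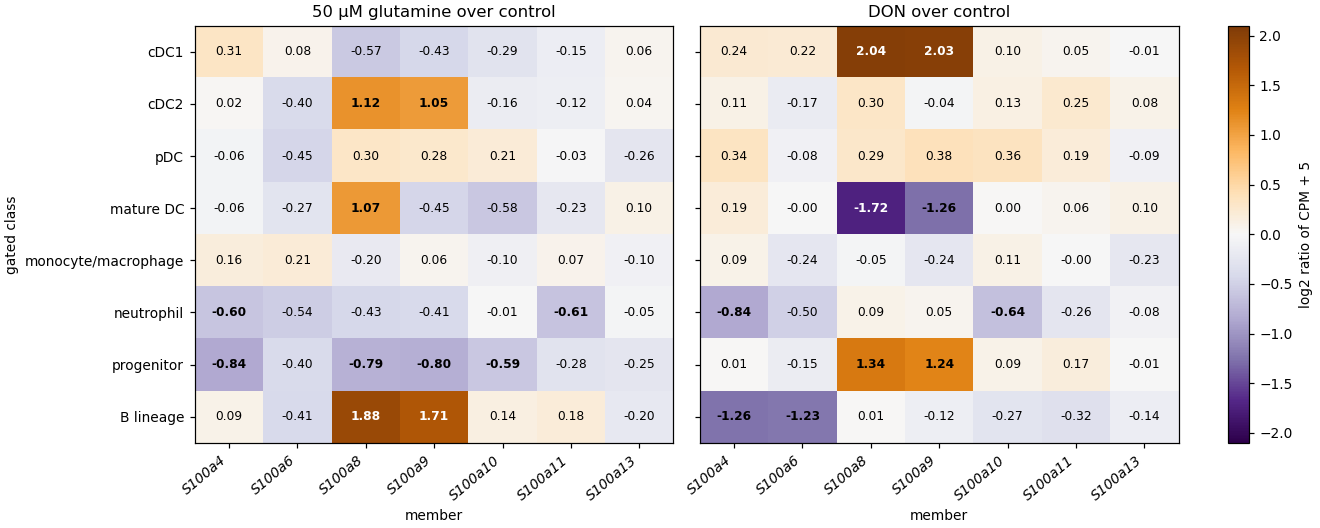
Log2 ratio of CPM + 5, treated over control, for each gate (rows) and member (columns), with 50 µM glutamine on the left and DON on the right; bold values are at least 1.5-fold. The values of largest size are those of S100a8 and S100a9 in the cDC1 gate with DON (2.04 and 2.03), where 3 cells hold most of the UMIs, while S100a4, S100a10, S100a11 and S100a13 stay between -0.58 and 0.36 in the cDC1, cDC2, pDC and mature DC gates.

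Across the 30 points of 10 gates and 3 libraries, each gene of at least 20 CPM at some point (8958 in all, leaving out ribosomal, mitochondrial, globin, immunoglobulin and predicted genes) was ranked by Pearson correlation of log2 of CPM + 5 with each member, as a description, since the points share libraries, depth and gates. S100a4 was most like Tmem176b (0.92), Tmem176a (0.91) and Tnip3 (0.88). S100a6 was like Pirb (0.87) and Fam241a (0.85), and S100a11 like Plbd1 (0.87), Gsap (0.85) and Cldn1 (0.85). S100a8 and S100a9 were most like each other (0.99), then Wfdc21, a marker of the neutrophil gate (0.94 and 0.95), with Chil3 for S100a8 (0.94) and Mtus1 for S100a9 (0.95). S100a10 followed Ccdc85b (0.89), Akr7a5 (0.88) and Itgb7 (0.82), and S100a13 followed Sri, Jak2 and Myl12a (0.77, 0.74 and 0.74). Between members, S100a6 and S100a11 had r = 0.76 and S100a8 and S100a10 r = -0.60, and these points are not independent.

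Of the 10 other S100 genes, S100a1 was measured, with 101 CPM at 50 µM, 31.6 with DON and 44.1 in control in cDC1, and up to 116 CPM in monocytes or macrophages at 50 µM. The other 9 stayed at or below 4.92 CPM in every gate, and S100z had 0 UMIs in all cells, which allows up to 3 UMIs. Of the 23 partners and receptors, 15 to 19 were measured per gate. Anxa2, the S100a10 partner, was called lower at 50 µM in cDC2 (396 CPM at 50 µM and 632 in control, -0.67), pDC (48.4 CPM at 50 µM and 101 in control, -0.99) and progenitors (74.5 CPM at 50 µM and 171 in control, -1.14), but with DON it was at -0.10 in cDC2 and 0.08 in pDC. Cd69, a membrane protein of early lymphocyte activation, was called higher at 50 µM in 7 of 8 gates, with 42.6 CPM at 50 µM and 9.33 in control in pDC and 124 CPM at 50 µM and 56.7 in control in progenitors. In these 7 gates 1.83 to 18.2% of all genes were called higher at 50 µM. Cd69 was also called higher with DON in 2 gates, neutrophils and B lineage cells, where 4.44% and 7.21% of all genes were. In neutrophils it had 15 UMIs at 50 µM and 0 in control. Anxa1 was called lower at 50 µM in pDC and mature DC (25.7 CPM at 50 µM and 60.7 in control, -1.10) but was highest in neutrophils (1603 CPM at 50 µM, 2084 with DON and 1829 in control). Tlr4 was low, up to 27.2 CPM (monocytes or macrophages, DON), and Ager was at 2.75 CPM at 50 µM, 0.987 with DON and 1.34 in control in cDC1, on 5 UMIs at 50 µM, 5 with DON and 18 in control. With DON, 0 partners were called in cDC2, pDC, mature DC and progenitors, where 0.757%, 2.9%, 3.49% and 0.464% of all genes were called. In B lineage cells 2 of 18 were higher and 6 lower with DON, where 15.9% of all genes were called. The higher ones were Mbp and Cd69, and the lower ones Anxa1, Anxa2, Anxa4, Anxa5, Ahnak and Plaur.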

How the data were processed

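The values deposited by the authors are unnormalized UMI counts of genes in barcodes called as cells; the file headers name Cell Ranger 6.0.0 and the submitters' processing notes Cell Ranger 3.1.0 with mm10, so the version is not settled. Barcodes with at least 1000 UMIs, 500 genes and at most 10% mitochondrial UMIs were kept. Cells were gated by marker UMIs (minimum 4 to 30 UMIs of at least 2 or 3 markers, 1 of them a required one); a cell whose top gate score was under 3 times the second was mixed and left out. No doublet caller was run. UMIs were summed per gate and library, scaled to CPM, and compared as log2 of CPM + 5. Intervals are 95% exact Poisson or Clopper-Pearson and cover counting error only. Shares were taken after thinning to 2000 UMIs. The gates were set with marker UMIs in view, and the members, lists and alternatives were chosen with earlier results of these data known. No test between groups was made, as each has 1 library. The genes named are the 7 members, the other S100 genes by count, a list of 23 partners, and the 3 genes closest to each member, of which 1 is not reported here. Scripts were tested on simulated counts and run in Python 3.11.15, numpy 2.4.6 and scipy 1.17.1. Gene positions come from GENCODE vM21, in which 99.6% of the 32285 identifiers were found.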

Additional observations from a re-analysis of the deposited data

Results flagged for a closer look

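In 4 cases a gene was at least 1.5-fold higher than control in one gate and at least 1.5-fold lower in another under the same treatment; the gates with the highest and lowest ratio are compared. The differences between gates were not tested. At 50 µM glutamine, the ratio of S100a8 was 2.67 higher in B lineage cells than in progenitors, and that of S100a9 was 2.50 higher. With DON, the ratio of S100a8 was 3.76 higher in cDC1 than in mature DC, and that of S100a9 was 3.29 higher. Without the cells that took at least 1% of their UMIs from both genes, S100a8 at 50 µM was at -0.055 in B lineage cells and 0.80 in progenitors, and S100a9 at 0.42 and -0.065. With DON, S100a8 was then at 0.31 in cDC1 and 0.21 in mature DC, and S100a9 at 0.32 and 0.54.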

How the results depend on the processing

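No paired analysis was possible because each group had 1 library. Of the 208 counts of members called under the alternatives, 55 moved by over 1.5 times and 153 did not. Of the log2 ratios 980 kept within their spread, 239 moved and 13 that had been at least 1.5-fold changed sign. These 13 concern S100a8 and S100a9 in the progenitor, B lineage and mature DC gates. Sign changes of smaller ratios are not among the 13. For example, S100a9 in monocytes or macrophages with DON was at -0.24, and at 0.85 without the rich cells. Leaving out cells with at least 1% S100a8 and S100a9 UMIs (added after seeing the data) gave S100a8 0.80 and -0.095 in progenitors (50 µM and DON), -0.055 in B lineage (50 µM) and 0.21 in mature DC (DON, S100a9 0.54), with counts of 0 (cDC2 and B lineage at 50 µM, cDC1, mature DC and progenitor with DON) and 1 (pDC at 50 µM, monocytes with DON). Leaving out cells with a neutrophil marker UMI gave S100a9 0.26 in progenitors and S100a8 -0.13 in B lineage at 50 µM, and with DON S100a8 -0.34 in progenitors, 0.18 in mature DC and S100a9 0.62, with counts of 0 or 1 in 8 comparisons. Keeping mixed cells gave S100a8 1.24 and S100a9 0.48 in mature DC with DON, and a count of 4 in neutrophils at 50 µM, 2 in mature DC at 50 µM and 1 in 4 DON comparisons. At least 2000 UMIs gave S100a8 -0.060 in B lineage (50 µM, count 0) and counts of 2 in monocytes with both treatments. At most 5% mitochondrial UMIs gave 1 in cDC1 and pDC at 50 µM. Gates without markers that moved gave 2 in pDC and mature DC, 1 in monocytes and 0 in neutrophils at 50 µM, and 2 in cDC2 and 1 in neutrophils with DON. Means over cells gave 1 in cDC1, pDC and neutrophils, 2 in mature DC and 4 in monocytes at 50 µM, and 1 in cDC2, 2 in monocytes and 0 in neutrophils with DON. A pseudocount of 1 CPM gave 1 in cDC1 and 2 in mature DC, and median-of-ratios scaling 1, 2 and 4 in cDC1, mature DC and neutrophils, all at 50 µM. Without the top 5% of cells by UMIs the counts were 2 in cDC1 and 1 in neutrophils at 50 µM and 1 in neutrophils with DON, and with 2 times the marker UMIs 2 in cDC1, 2 in monocytes and 1 in neutrophils at 50 µM and 1 in cDC2 with DON. At a 2-fold limit neutrophils (both treatments) and progenitors at 50 µM had 0. The highest gate of S100a4, S100a6, S100a8, S100a9 and S100a10 did not change under the 9 alternatives that regroup or reweigh cells. For S100a11, 1 of the 9 put neutrophils above cDC1 at 50 µM and with DON. The causes were not tested. A ratio can change without rich cells only where at least 1 library had such cells, so no cause is read from these sign changes.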
